A study of Rattus norvegicus with 6 samples.

Results

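The genes described here are 37 antioxidant genes of the thioredoxin, glutathione and NADPH systems, chosen by name, and all 37 were found among the 16849 genes of the deposited count table. Their RNA was sequenced in wild-type RSC96 cells, a rat Schwann cell line that grows without limit in culture, in 6 libraries from 3 groups of 2. The PVDF@PDA group was held in a hypoxia model with a piezoelectric material, and the PCL@PDA group was held in the same model with a non-piezoelectric material. The model consisted of medium from macrophages applied for 24 h. For PCL@PDA the description field gives PVDF@PDA as its material, in conflict with title and treatment, and the latter were used. The Control group carries no further description, so it is not known whether these cells received the medium, and a difference from Control is one between whole conditions. Each group holds 1 library of batch 1 and 1 of batch 3, called replicates 1 and 3. All libraries come from a single cell line. Because separate cultures are not stated, the p-values measure the spread between these libraries, which may be technical. In the fit this spread was largely pooled over genes, so only a small part of it is each gene's own.

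Cells remove peroxides through 2 linked thiol systems. Peroxiredoxins and glutathione peroxidases reduce the peroxide, thioredoxin and glutathione restore those enzymes, and the reductases that recycle them draw on NADPH from the pentose phosphate pathway, malic enzyme and isocitrate dehydrogenase. Many of the genes are targets of the transcription factor NRF2, encoded by Nfe2l2. The KEAP1 protein holds NRF2 at a low level until oxidants or electrophiles modify it, and NRF2 then binds antioxidant response elements together with small MAF proteins. Schwann cells meet oxidative stress after nerve injury, when axons and myelin break down and macrophages enter the nerve.

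The core of the antioxidant response element was searched as TGACNNNGC on both strands in RefSeq promoter windows (GRCr8) reaching from 250 bases before to 50 bases after the start of a gene. Of the 37 genes 33 had a window, and 9 of these (27.3%) held the core, against 12.2% of 27457 windows of all genes and 14.7% of the 10605 windows of genes tested for expression. The core stood in 4 of the 11 windows of genes that passed a test against Control and in 5 of the 22 windows of genes that did not. The windows shown are those of the 4 former genes and of 2 genes that carry the same 9 letters as Prdx1. Capitals mark the core and lower case the flanking 12 bases or as many as the window held, each written 5′ to 3′ on the strand that carries the core.

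Prdx1: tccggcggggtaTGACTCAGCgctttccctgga
Gstp1: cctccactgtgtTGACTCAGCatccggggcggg
Me1: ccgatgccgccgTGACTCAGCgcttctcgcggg
Sod2: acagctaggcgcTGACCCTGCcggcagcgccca
Idh1: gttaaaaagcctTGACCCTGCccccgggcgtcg
Nfe2l2: ccgactagccatTGACGCCGCctc

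The Prdx1 stretch lies at chr5:135383759-135383791, on the strand opposite to the gene, with its core reaching up to 135 bases before the start. The Gstp1 stretch lies at chr1:210769746-210769778 and that of Me1 at chr8:96540391-96540423, both on the strand of the gene. The Sod2 stretch lies at chr1:50050183-50050215 on the opposite strand, that of Idh1 at chr9:74049537-74049569 on the strand of the gene and that of Nfe2l2 at chr3:81028950-81028973 on the strand of the gene. The exact letters TGACTCAGC, chosen after the matches were seen, occurred in 3 of the 33 windows (9.09%) and in 113 of 27457 windows of all genes (0.412%). A match describes letters in a window and no binding was measured. Prdx1 was higher with both materials than in Control, whereas Gstp1 and Me1, with the same core, were not called. All material libraries of Gstp1 nevertheless lay above Control, and it passed in some alternative analyses given below.

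Between 32760123 and 35389307 reads were counted per library, and 3 counts, taken as the floor of detection, correspond to 0.0848 to 0.0916 CPM. All 37 genes passed the filter on low counts, with which 13018 genes were tested. On the second principal component PCL@PDA replicate 3 lay at -28.5, apart from PCL@PDA replicate 1 at 6.09. The Control libraries were also apart, at 13.7 for replicate 1 and -13.6 for replicate 3, while those of PVDF@PDA lay at 10.7 and 11.6. Of 15 Schwann cell markers 14 were in the table, with a summed level of 190.0 to 203 CPM of library totals in Control and 232 to 241 in the material libraries. Ncam1, Pmp22 and Cnp held most of this sum, Erbb3 lay lower with the materials (10.3 to 12.04 CPM, against 17.2 to 17.4 in Control), while the Schwann cell markers S100b and Ngfr lay below 1 CPM in every library. Of 17 macrophage markers 11 were in the table, summing to 8.06 to 9.10 CPM in all 6 libraries, and the leukocyte antigen Ptprc had 0 or 1 count. Of 8 fibroblast markers 7 were in the table and summed to 812 to 853 CPM, mostly from Col1a2 and Thy1. In the same list Pdgfra lay at 27.4 to 32.9 CPM with the materials and at 18.3 to 19.2 in Control, and Col1a1 at 20.2 to 21.2 and 12.1 to 13.1, with Dcn at 0 or 1 count. The part of these levels in the differences below was not tested.

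Levels were compared between genes on the length-scaled FPKM as deposited. In Control the cytosolic thioredoxin Txn1 was the highest, at a mean of 834 FPKM, followed by the cytosolic peroxiredoxin Prdx1 at 625, the glutathione transferase Gstp1 at 486 and the peroxiredoxin Prdx5 at 476. The median of the 37 genes was 60.4 FPKM against 7.64 for all genes tested, and 18 of the 37 lay in the top 10% of genes tested. The lowest were the microsomal transferase Mgst3 at 1.39 FPKM, the transferase Gsta4 at 2.35, the NRF2 inhibitor Keap1 at 5.34 and the mitochondrial thioredoxin reductase Txnrd2 at 7.10. Of the 2 thioredoxin reductases, the cytosolic Txnrd1 lay at 116 FPKM, far above Txnrd2. Levels varied little between libraries. In TMM-scaled CPM the highest of the 6 libraries was 1.21 times the lowest at the median of the 37 genes, 2.07 times for Txnrd2 and 5.18 times for Mgst3. Reads of the transferases Gstp1, Gstm1 and Gsta4 may be shared with close family members, and how such reads were counted is not stated. In RefSeq (GRCr8) Gss overlaps Myh7b, Prdx5 overlaps Trmt112 and Txnrd1 overlaps Eid3, and the strand used in counting is likewise not stated.

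**Figure D1:**
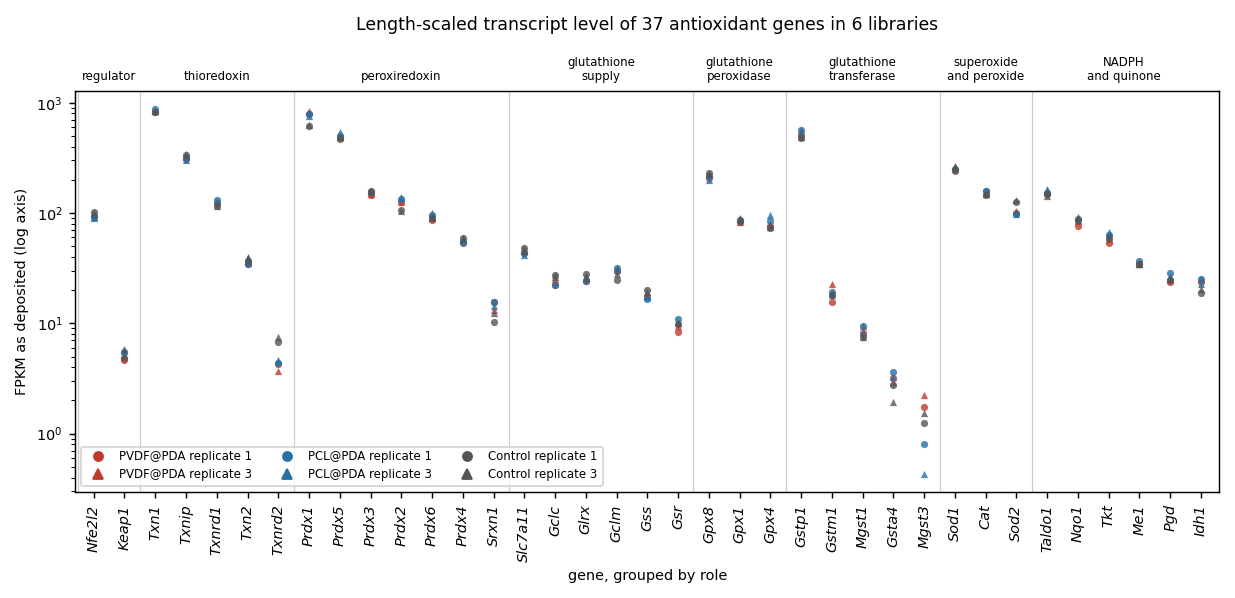
Deposited FPKM on a log axis for the 37 genes, grouped by role along the horizontal axis. Each point is 1 library, coloured by group, with circles for replicate 1 and triangles for replicate 3. The points of most genes lie close together, while those of Mgst3, Txnrd2, Sod2 and Prdx1, among others, spread by group.

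Against Control, 13 of the 37 genes passed the test with at least 1 material. With PVDF@PDA 4 rose and 5 fell, together 24.3% of the 37 against 15.7% of the 13018 genes tested, of which 6.79% were higher and 8.9% lower. With PCL@PDA 5 rose and 7 fell, together 32.4% against 20.1%, of which 8.77% were higher and 11.3% lower. At an unadjusted p below 0.05 there were 15 and 16 of the 37, beside 28.2% and 31.0% of all genes. Both PVDF@PDA libraries lay above both Control libraries in 11 genes (29.7%, against 29.4% of all genes) and below them in 18 (48.6%, against 29.2%). Both PCL@PDA libraries lay above Control in 16 genes (43.2%, against 28.3%) and below in 12 (32.4%, against 27.8%). The median log2 difference of the 37 was -0.06 with PVDF@PDA and -0.00 with PCL@PDA, and over all genes tested it was 0.01 in both. Both comparisons use the same Control libraries. Of the 13 genes, 8 passed with both materials, 4 with PCL@PDA alone and 1 with PVDF@PDA alone, and no member differed between the materials by test. Every called gene moved in the same direction within batch 1 and within batch 3. The calls were made on these same libraries and favour such agreement, so it is no separate support. Over all genes, library totals alone as the scaling gave 1164 higher and 879 lower with PVDF@PDA in place of 884 and 1158, and 1482 and 1070 with PCL@PDA in place of 1142 and 1474. Among the 37 it changed the split to 5 higher and 2 lower with PVDF@PDA and to 8 higher and 4 lower with PCL@PDA, and a batch term changed that with PVDF@PDA to 5 higher and 8 lower. With the batch term 19.9% of all genes passed with PVDF@PDA and 23.4% with PCL@PDA. Levels below are TMM-scaled CPM, differences are log2 values with their standard error (SE), and adjusted p-values come from edgeR's quasi-likelihood test with Benjamini-Hochberg adjustment over all genes tested. In bulk samples fewer cells that express a gene and less of its RNA per cell cannot be told apart.

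**Figure D2:**
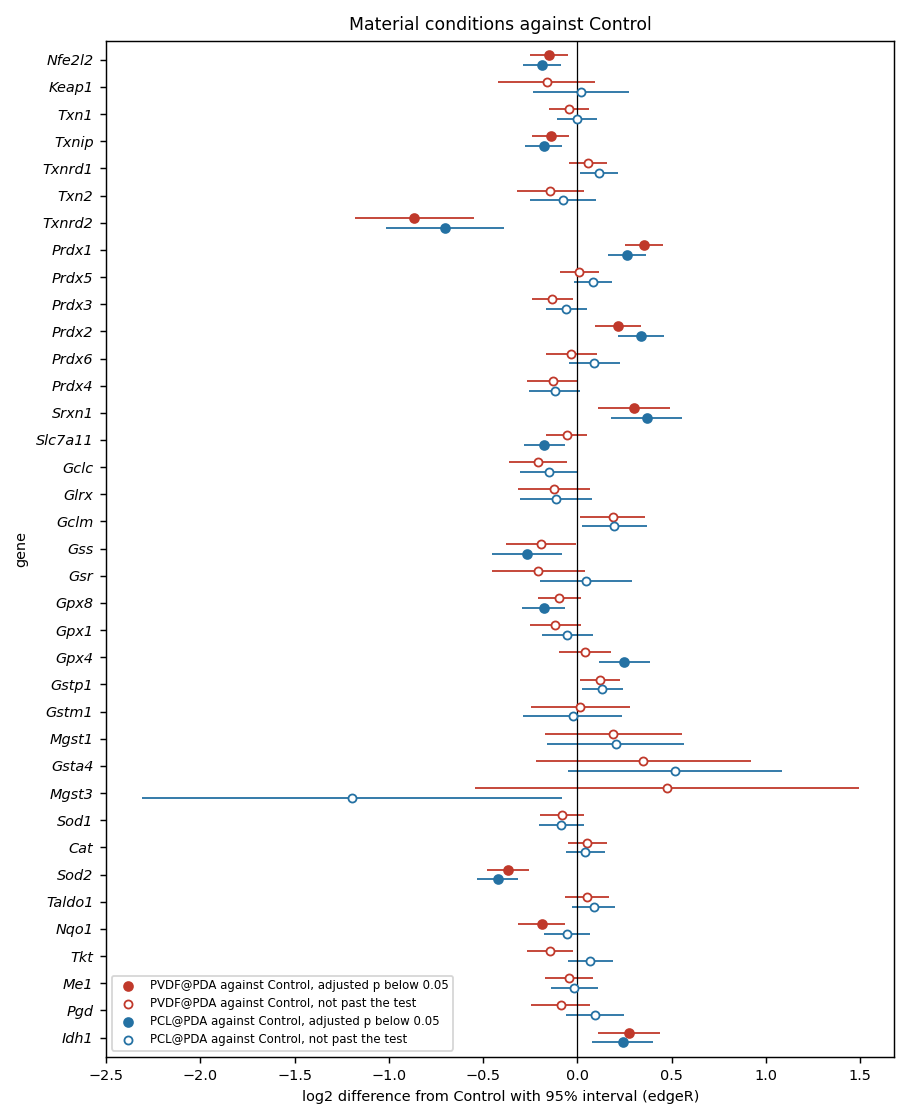
Log2 difference from Control with its 95% interval (horizontal axis) for the 37 genes (vertical axis, grouped by role), with PVDF@PDA in red and PCL@PDA in blue. Filled points passed the test, and these are Nfe2l2, Txnip, Txnrd2, Prdx1, Prdx2, Srxn1, Sod2 and Idh1 for both materials, Nqo1 for PVDF@PDA, and Slc7a11, Gss, Gpx8 and Gpx4 for PCL@PDA.

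Of the regulators, the NRF2 gene Nfe2l2 (gene ID 83619) was lower with both materials and Keap1 passed no test. Nfe2l2 lay at 564 and 556 CPM in PVDF@PDA replicates 1 and 3, at 559 and 532 in PCL@PDA and at 632 and 612 in Control. All 4 material libraries lay below both Control libraries. It fell by 0.15 with PVDF@PDA (SE 0.05, adjusted p = 0.0314) and by 0.19 with PCL@PDA (SE 0.05, adjusted p = 0.00466). The first call ended when either PVDF@PDA library or either Control library was left out (adjusted p = 0.0794 to 0.277) and with library totals as the scaling (0.0800), and the second ended without Control replicate 1 (0.120). Keap1 ranged from 14.8 to 18.8 CPM, both material groups overlapped Control, and it differed from Control by -0.16 with PVDF@PDA and 0.02 with PCL@PDA.

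In the thioredoxin system the mitochondrial reductase and the thioredoxin-binding inhibitor were lower, while the cytosolic pair was not called. Txnrd2 (gene ID 50551), which keeps mitochondrial thioredoxin reduced, lay at 8.50 and 7.27 CPM with PVDF@PDA, at 8.59 and 9.08 with PCL@PDA and at 13.7 and 15.0 in Control. The groups were well separated from Control, and this was the largest change of any called member. It fell by 0.86 with PVDF@PDA (SE 0.16, adjusted p = 4.39e-05) and by 0.70 with PCL@PDA (SE 0.16, adjusted p = 0.000666), a level of 0.549 and 0.615 times that of Control.

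Txnip (gene ID 117514), which binds and inhibits thioredoxin and restrains glucose uptake, lay at 848 and 874 CPM with PVDF@PDA, at 861 and 818 with PCL@PDA and at 937 and 963 in Control. The material and Control libraries did not overlap. Txnip fell by 0.14 with PVDF@PDA (SE 0.05, adjusted p = 0.0390) and by 0.18 with PCL@PDA (SE 0.05, adjusted p = 0.00624). The first call ended when either PVDF@PDA library or either Control library was left out (adjusted p = 0.132 to 0.316) and with library totals as the scaling (0.101), and the second ended without Control replicate 3 (0.0911). Txn1 lay at 271 to 286 CPM in all libraries and differed by -0.05 and -0.00. The mitochondrial thioredoxin Txn2 lay at 37.8 to 43.6 and differed by -0.14 and -0.08, and Txnrd1 lay at 431 to 480 and differed by 0.06 and 0.11. None of these passed the test, although Txnrd1 did so with PCL@PDA with a batch term (adjusted p = 0.0463), with library totals as the scaling (0.0131) and without PCL@PDA replicate 3 (0.0326).

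Among the peroxiredoxins, the cytosolic Prdx1 and Prdx2 and their repair enzyme Srxn1 rose with both materials, and the other 4 peroxiredoxins were not called. Prdx1 (gene ID 117254) lay at 697 and 742 CPM with PVDF@PDA, at 691 and 664 with PCL@PDA and at 558 and 569 in Control. Every material library exceeded both Control libraries by more than the spread within any group. Prdx1 rose by 0.35 with PVDF@PDA (SE 0.05, adjusted p = 4.16e-07) and by 0.27 with PCL@PDA (SE 0.05, adjusted p = 7.32e-05), equal to 1.28-fold and 1.20-fold. Prdx2 (gene ID 29338) lay at 109.9 and 109.2 CPM with PVDF@PDA, at 117 and 121 with PCL@PDA and at 95.9 and 92.9 in Control. PCL@PDA lay highest and Control lowest, with no overlap among the 3 groups. Prdx2 rose by 0.22 (SE 0.06, adjusted p = 0.0113) and by 0.34 (SE 0.06, adjusted p = 4.39e-05) with PVDF@PDA and PCL@PDA. The first of these calls ended when either PVDF@PDA library or either Control library was left out (adjusted p = 0.0612 to 0.159).

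Srxn1 (gene ID 296271), the sulfiredoxin that restores overoxidised peroxiredoxins and a known NRF2 target, lay at 44.3 and 37.9 CPM with PVDF@PDA, at 45.2 and 40.9 with PCL@PDA and at 30.5 and 36.2 in Control. Replicate 1 was the higher of the pair in both material groups and the lower in Control. It rose by 0.30 (SE 0.09, adjusted p = 0.0219) and by 0.37 (SE 0.09, adjusted p = 0.00354) in the same order. Without Control replicate 1 these were 0.18 (adjusted p = 0.374) and 0.25 (adjusted p = 0.169), and without PVDF@PDA replicate 1 the first was 0.18 (adjusted p = 0.380). DESeq2 did not call the first (adjusted p = 0.0639). The mitochondrial Prdx3 lay at 205 to 228 CPM, with differences of -0.13 and -0.06, and passed with PVDF@PDA with a batch term (adjusted p = 0.0420), with only the 4 libraries compared (0.0198) and without either PCL@PDA library (0.0183 and 0.0171). Prdx4 of the endoplasmic reticulum lay at 72.3 to 82.2 CPM with differences of -0.13 and -0.12, Prdx5 at 521 to 583 with 0.01 and 0.08 (0.13 without PCL@PDA replicate 1, where it passed, adjusted p = 0.0241), and the one-cysteine Prdx6 at 74.3 to 83.4 with -0.03 and 0.09.

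Glutathione supply was lower in 2 of its 6 genes with PCL@PDA and in none with PVDF@PDA. Slc7a11 (gene ID 310392), the cystine importer that feeds glutathione synthesis, lay at 492 and 549 CPM with PVDF@PDA, at 495 and 463 with PCL@PDA and at 559 and 524 in Control. Both PCL@PDA libraries lay below Control, whereas PVDF@PDA overlapped it. It fell by 0.18 with PCL@PDA (SE 0.05, adjusted p = 0.0147) and differed by -0.06 with PVDF@PDA (SE 0.05, adjusted p = 0.544). The call ended without Control replicate 1 (adjusted p = 0.268), without PCL@PDA replicate 3 (0.0638) and with library totals as the scaling (0.0588). Gss (gene ID 25458), the glutathione synthetase, lay at 32.9 and 33.3 CPM with PVDF@PDA, at 30.9 and 32.0 with PCL@PDA and at 38.6 and 37.1 in Control. All material libraries were below Control. Gss fell by 0.27 with PCL@PDA (SE 0.09, adjusted p = 0.0317) and differed by -0.19 with PVDF@PDA (SE 0.09, adjusted p = 0.158). For Gss the call was lost without Control replicate 1 (adjusted p = 0.219), Control replicate 3 (0.0831) or PCL@PDA replicate 1 (0.0837), and with library totals as the scaling (0.0826).

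The 2 subunits of glutamate-cysteine ligase, the first enzyme of glutathione synthesis, lay on opposite sides of Control without passing the test. The catalytic subunit Gclc lay at 78.7 and 89.8 CPM with PVDF@PDA, at 79.0 and 96.3 with PCL@PDA and at 99.6 and 95.1 in Control. Its differences were -0.21 and -0.15, and with a batch term the first passed (adjusted p = 0.00719). It also passed with no filter on low counts, with only the 4 libraries compared, without either PCL@PDA library and without PVDF@PDA replicate 3 (adjusted p = 0.00297 to 0.0171). Without PCL@PDA replicate 3 the difference with PCL@PDA was -0.31 (adjusted p = 0.000800). The modifier subunit Gclm lay at 43.9 and 46.8 CPM with PVDF@PDA, at 46.6 and 44.5 with PCL@PDA and at 37.6 and 42.0 in Control, and differed by 0.19 in both (adjusted p = 0.138 and 0.105), passing with PCL@PDA under library totals as the scaling (0.0475). All 4 material libraries were above Control for Gclm, while for Gclc those of PCL@PDA overlapped it. The glutathione reductase Gsr differed by -0.21 and 0.05 and the glutaredoxin Glrx by -0.12 in both.

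Of the glutathione peroxidases, Gpx4 rose and Gpx8 fell with PCL@PDA, and Gpx1 was not called. Gpx4 (gene ID 29328), which reduces lipid peroxides in membranes and restrains ferroptosis, lay at 79.7 and 83.0 CPM with PVDF@PDA, at 89.2 and 98.9 with PCL@PDA and at 78.1 and 80.2 in Control. Only the PCL@PDA libraries stood above Control without overlap. Gpx4 rose by 0.25 with PCL@PDA (SE 0.07, adjusted p = 0.00560) and differed by 0.04 with PVDF@PDA (SE 0.07, adjusted p = 0.764). Without Control replicate 1 the first was 0.23 (adjusted p = 0.0877), and without PCL@PDA replicate 3 it was 0.17 (adjusted p = 0.101). Gpx8 (gene ID 294744), a peroxidase of the endoplasmic reticulum, lay at 218 and 235 CPM with PVDF@PDA, at 225 and 203 with PCL@PDA and at 245 and 239.8 in Control. Every material library was below Control. It fell by 0.18 with PCL@PDA (SE 0.06, adjusted p = 0.0194) and differed by -0.10 with PVDF@PDA (SE 0.06, adjusted p = 0.267). This call ended without Control replicate 1 (adjusted p = 0.162), Control replicate 3 (0.0572) or PCL@PDA replicate 3 (0.173), and with library totals as the scaling (0.0683). Gpx1, the abundant cytosolic peroxidase, lay at 74.9 to 81.5 CPM with differences of -0.12 and -0.05.

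None of the 5 glutathione transferases was called in either comparison. Gstp1 lay at 393 and 434 CPM with PVDF@PDA, at 431 and 403 with PCL@PDA and at 378 and 383 in Control, with differences of 0.12 and 0.13 (adjusted p = 0.121 and 0.0736). All material libraries exceeded Control, and both comparisons passed with a batch term (adjusted p = 0.0419 and 0.0182) and with library totals as the scaling (0.0266 and 0.0109). With PVDF@PDA it also passed with only the 4 libraries compared (0.0274) and without either PCL@PDA library (0.0198 and 0.0292), and with PCL@PDA without PCL@PDA replicate 3 (0.00774). Gsta4 differed by 0.35 and 0.52, Mgst1 by 0.19 and 0.20 and Gstm1 by 0.01 and -0.03. The interval of Gsta4 with PCL@PDA reached from -0.05 to 1.09, at a level of 2.01 to 3.70 CPM over the 6 libraries.

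Of the enzymes that act on superoxide and hydrogen peroxide, the mitochondrial superoxide dismutase fell and the other 2 were not called. Sod2 (gene ID 24787) lay at 207 and 212 CPM with PVDF@PDA, at 202 and 200.5 with PCL@PDA and at 263 and 277 in Control. The gap between the material and Control libraries was several times the spread within a group. Sod2 fell by 0.37 with PVDF@PDA (SE 0.05, adjusted p = 1.05e-06) and by 0.42 with PCL@PDA (SE 0.05, adjusted p = 3.12e-08), to 0.775 and 0.746 times the Control level. The cytosolic dismutase Sod1 lay at 156 to 177 CPM and differed by -0.08 and -0.09, and catalase, Cat, lay at 379 to 400.1 and differed by 0.05 and 0.04. Among the 37 genes, Txnrd2, Prdx1 and Sod2 passed with both materials in all 15 alternative analyses, and no other gene did.

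NADPH-producing enzymes and the quinone reductase gave 1 call in each direction with PVDF@PDA. Idh1 (gene ID 24479), the cytosolic isocitrate dehydrogenase, lay at 53.4 and 56.6 CPM with PVDF@PDA, at 57.0 and 50.5 with PCL@PDA and at 44.0 and 47.1 in Control. Every material library was above Control. It rose by 0.27 (SE 0.08, adjusted p = 0.0153) and by 0.24 (SE 0.08, adjusted p = 0.0294). Without Control replicate 1 these calls ended (adjusted p = 0.194 and 0.273), as did the first without PVDF@PDA replicate 3 (0.203) and the second without Control replicate 3 (0.0536) or PCL@PDA replicate 1 (0.243) and in DESeq2 (0.0591). Nqo1 (gene ID 24314), the NAD(P)H quinone dehydrogenase often read as an NRF2 target, lay at 109.4 and 121 CPM with PVDF@PDA, at 129 and 124 with PCL@PDA and at 128 and 135 in Control. Both PVDF@PDA libraries lay below Control, and PCL@PDA overlapped it. Nqo1 fell by 0.19 with PVDF@PDA (SE 0.06, adjusted p = 0.0278) and differed by -0.06 with PCL@PDA (SE 0.06, adjusted p = 0.596). The call ended without PVDF@PDA replicate 1 (adjusted p = 0.428), Control replicate 1 (0.0641) or Control replicate 3 (0.241), and with library totals as the scaling (0.0780). The malic enzyme Me1 lay at 103 to 112 CPM, with differences of -0.05 and -0.02, and the transaldolase Taldo1 of the pentose phosphate pathway at 172 to 194, with 0.05 and 0.09.

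**Figure D3:**
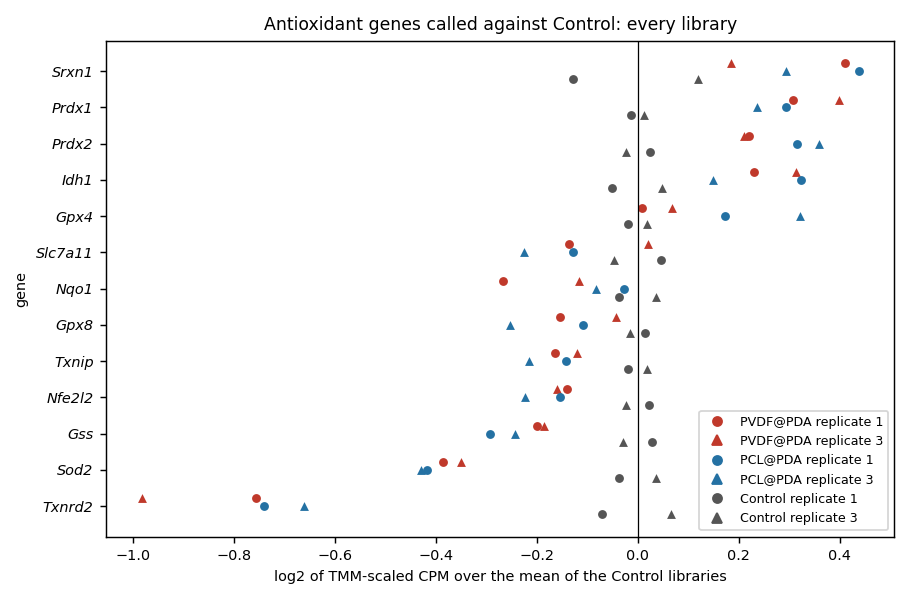
Log2 of TMM-scaled CPM over the Control mean (horizontal axis) for the 13 genes called against Control (vertical axis), with 1 point per library, coloured by group and shaped by replicate. The material libraries of Txnrd2, Sod2, Prdx1 and Prdx2 lie clear of the Control libraries, whereas those of Slc7a11, Nqo1 and Gpx4 overlap Control in 1 material group.

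Between the materials, none of the 37 genes passed edgeR's quasi-likelihood test, where 0.0615% of all genes did (0.0538% higher and 0.00768% lower with PVDF@PDA), and none passed in DESeq2. At an unadjusted p below 0.05 there were 7 of 37, against 8.49% of all genes. Differences were small, with a median log2 difference of PVDF@PDA from PCL@PDA of -0.04 against 0.00 for all genes tested. The 95% interval lay within 0.5 of 0 on the log2 scale for 35 of the 37, Mgst3 and Gsta4 being the exceptions. It did so for 8999 of the 13018 genes tested. The 37 are more abundant than most genes, with a median of 60.4 FPKM in Control against 7.64, and the part of this in their intervals was not tested. The 2 PVDF@PDA libraries lay below both PCL@PDA libraries in 15 genes (40.5%, against 18.9% of all genes) and above them in 4 (10.8%, against 19.2%). Within batches, 26 of the 37 differed in the same direction in batch 1 and batch 3. Genes whose groups do not overlap must do so, and the share over all genes was not computed, so no conclusion is drawn from this count.

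The pentose phosphate enzymes Tkt and Pgd stood among the smallest p-values. The transketolase Tkt (gene ID 64524) lay at 118 and 127 CPM with PVDF@PDA, at 139 and 146 with PCL@PDA and at 134 and 137 in Control. PVDF@PDA lay below both other groups, with PCL@PDA above Control. The difference between the materials was -0.22 (SE 0.06, interval -0.34 to -0.09, adjusted p = 0.266). With a batch term it passed (adjusted p = 0.0386), where 0.453% of all genes passed, and it also passed without PCL@PDA replicate 1 (0.00424). Against Control Tkt differed by -0.15 with PVDF@PDA (adjusted p = 0.0951). That difference passed with the batch term (0.0473), with only the 4 libraries compared (0.0265) and without either PCL@PDA library (0.0245 and 0.0230). The phosphogluconate dehydrogenase Pgd (gene ID 100360180), which makes NADPH, lay at 51.7 and 53.6 CPM with PVDF@PDA, at 61.9 and 57.5 with PCL@PDA and at 55.0 and 57.0 in Control. It showed the same order of groups, with a difference of -0.18 (SE 0.08, interval -0.34 to -0.03, adjusted p = 0.507).

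Gpx4, whose library values are given above, was lower with PVDF@PDA than with PCL@PDA by 0.21 on the log2 scale without passing (SE 0.07, interval -0.34 to -0.07, adjusted p = 0.398). Nqo1 differed by -0.13 (SE 0.06, interval -0.26 to -0.01, adjusted p = 0.538), and its PVDF@PDA libraries were the lower ones. Slc7a11 differed by 0.12 (SE 0.05, interval 0.01 to 0.23, adjusted p = 0.531) with overlapping groups. Without PCL@PDA replicate 1, Gpx4 (-0.28, adjusted p = 0.00497) and Slc7a11 (0.17, adjusted p = 0.0217) passed. In that setting 827 of all genes passed, and the 1 PCL@PDA library left was the one that lay apart on the second component.

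Mgst3 (gene ID 289197), a membrane-bound transferase and peroxidase, had the largest difference between the materials and few reads. It had 43 and 57 counts with PVDF@PDA, 21 and 11 with PCL@PDA and 32 and 41 in Control. In TMM-scaled CPM these were 1.31 and 1.66, then 0.608 and 0.321, then 0.960 and 1.18, so that PVDF@PDA was highest and PCL@PDA lowest without overlap. The difference was 1.67 (SE 0.55, interval 0.57 to 2.77), and it did not pass (adjusted p = 0.400). Against Control it differed by 0.47 with PVDF@PDA and -1.20 with PCL@PDA (adjusted p = 0.592 and 0.128). The latter passed in limma on log2(FPKM + 0.1) (-1.09, adjusted p = 0.0424) and on log2(FPKM + 1) (-0.57, adjusted p = 0.0450).

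For Prdx1, Sod2 and Txnrd2, which passed against Control in all 15 alternatives, the interval of the difference between the materials bounds its size. It was 0.09 for Prdx1 (interval -0.01 to 0.19), 0.06 for Sod2 (-0.05 to 0.17) and -0.16 for Txnrd2 (-0.49 to 0.16). Prdx2 and Srxn1 rose more than Prdx1 with PCL@PDA. Between the materials Prdx2 differed by -0.12 (-0.25 to 0.002), without overlap of the groups, and Srxn1 by -0.07 (-0.25 to 0.12). For the NRF2 gene Nfe2l2 it was 0.04 (-0.06 to 0.14), for Txnip 0.04 (-0.06 to 0.13) and for Txn1 -0.04 (-0.15 to 0.07). The interval of Txnrd2, the least abundant of these genes, was the widest among them. The glutathione reductase Gsr also had an unadjusted p below 0.05, with a difference of -0.25 (interval -0.50 to -0.01, adjusted p = 0.565).

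**Figure D4:**
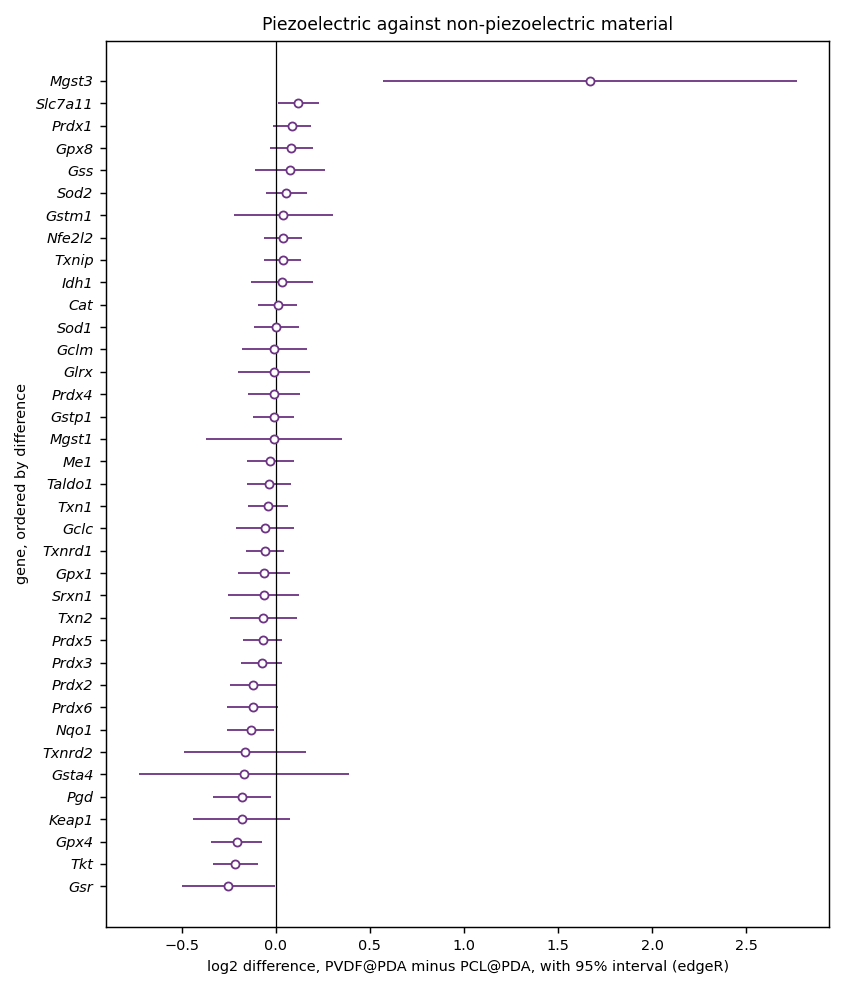
Log2 difference of PVDF@PDA minus PCL@PDA with its 95% interval (horizontal axis) for the 37 genes, ordered by the difference (vertical axis). No gene passed the test, and the intervals lie within 0.5 of 0 except for Mgst3 and Gsta4.

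Other genes of these pathways were taken from 2 lists. Of 65 listed antioxidant genes 61 were tested. With PVDF@PDA 5 rose and 8 fell (21.3%), and with PCL@PDA 10 rose and 7 fell (27.9%), beside the 15.7% and 20.1% of all genes. Of 20 listed NADPH genes 18 were tested, of which 3 rose and 1 fell with PVDF@PDA (22.2%) and 4 rose with PCL@PDA (22.2%). No gene of either list passed between the materials in the main fit or with the batch term. Among the genes named below, leaving out PCL@PDA replicate 1 changed this for Chac1, Akr1b1, Shmt2 and Sesn2. With 1 library left out their differences ranged from -0.24 to -0.06, -0.24 to -0.09, -0.21 to -0.06 and -0.15 to -0.05, in that order. Median differences of the 2 lists lay between -0.05 and 0.04 in all comparisons.

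The genes of smallest p in these lists against Control were Chac1, Ugdh, Sesn2 and Shmt2 with PVDF@PDA, and Chac1, Ugdh, Shmt1 and Akr1b1 with PCL@PDA. Chac1, a gamma-glutamylcyclotransferase that cleaves glutathione, lay at 453 and 474 CPM with PVDF@PDA, at 484 and 547 with PCL@PDA and at 371 and 378 in Control. PCL@PDA was highest and Control lowest, without overlap. Chac1 rose by 0.31 (SE 0.05, adjusted p = 2.75e-05) and by 0.46 (SE 0.05, adjusted p = 3.34e-09).

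Ugdh, which makes UDP-glucuronate for conjugation, lay at 65.2 and 74.4 CPM with PVDF@PDA, at 74.3 and 72.6 with PCL@PDA and at 91.2 and 100.5 in Control. All material libraries were below Control. Ugdh fell by 0.46 (SE 0.07, adjusted p = 2.69e-06) and by 0.38 (SE 0.07, adjusted p = 4.97e-05), and like Chac1 it passed in all 15 alternative analyses with both materials.

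Sesn2, a stress-induced sestrin, lay at 390.0 and 384 CPM with PVDF@PDA and at 457 and 462 in Control, and fell by 0.25 (adjusted p = 0.000351). With PCL@PDA it lay at 401 and 429 CPM and fell by 0.15 (adjusted p = 0.0374), a call that held in 6 of the 15 alternatives and reached an adjusted p of 0.188 without Control replicate 3. Shmt2, the serine hydroxymethyltransferase of mitochondria, lay at 179 and 184 CPM with PVDF@PDA and at 212 and 221 in Control, and fell by 0.26 (adjusted p = 0.000970). The call of Shmt2 ended in limma (adjusted p = 0.0750 and 0.0812), and with PCL@PDA it differed by -0.12 (adjusted p = 0.134), passing without PCL@PDA replicate 3 (0.00563). In both genes the PVDF@PDA libraries were clear of Control. The cytosolic counterpart of Shmt2, Shmt1, lay at 47.6 and 46.1 CPM with PCL@PDA and at 33.96 and 34.23 in Control, and rose by 0.46 (adjusted p = 6.49e-05). With PVDF@PDA Shmt1 rose by 0.27 (adjusted p = 0.0254), a call that ended when any 1 PVDF@PDA or Control library was left out (0.132 to 0.148). The aldose reductase Akr1b1 lay at 151 and 167 CPM with PCL@PDA and at 125 and 132 in Control, and rose by 0.31 (adjusted p = 0.000131). With PVDF@PDA Akr1b1 differed by 0.14 (adjusted p = 0.109), passing in 4 of the 15 alternatives.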

How the data were processed

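The deposited count table holds raw read counts per gene for 6 libraries, and the deposited FPKM tables hold values that the authors scaled by gene length and library total, per the file headers. The submitters' processing notes name DESeq2 1.4.5 and the assembly mRatBN7.2 without a role. No source used here names the aligner, counter, annotation or strandedness. Counts divided by FPKM gave 1 length per gene (15690 genes, relative tolerance 1e-05). The fit used edgeR 4.0.16 under R 4.3.3, with TMM scaling, filterByExpr (13018 genes kept, 3831 removed) and a robust quasi-likelihood fit of 3 group means, leaving 3 residual degrees of freedom. The spread pooled over genes entered with a median of 50.3 prior degrees of freedom. A gene was called at an adjusted p (Benjamini-Hochberg, all genes) under 0.05. The script was tested on simulated data.

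The labels give batches 1 and 3, which pair the libraries. Across 10898 genes, the deviations of same-batch libraries from their group means correlated at 0.0176 (PVDF@PDA and PCL@PDA), 0.0561 (PVDF@PDA and Control) and 0.132 (PCL@PDA and Control). Alternatives were a batch term, other scalings, no filter, DESeq2 1.42.0, limma 3.58.1 on log2(FPKM + 1) and log2(FPKM + 0.1), only the 4 libraries compared, and each library left out. The genes and lists were chosen with earlier results of these data known. Genes called in any comparison, and the 6 of smallest p between the materials, are given per library. From the wider lists, up to 4 called genes of smallest p per comparison are named.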

Additional observations from a re-analysis of the deposited data

How the results depend on the processing

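With PVDF@PDA against PCL@PDA, the count of lower members was 1 with the replicate block (batch term) and 0 in the other analyses of all libraries. Leaving out 1 library gave 0 to 1 higher and 0 to 2 lower. With PVDF@PDA against Control, 5 lower members became 8 with the batch term or with only the 4 libraries compared. They became 2 with library totals alone or with limma on log2(FPKM + 0.1), and log2(FPKM + 1) gave 2 higher and 2 lower. Leaving out 1 library gave 1 to 5 higher and 2 to 8 lower. With PCL@PDA against Control, library totals alone gave 8 higher and 4 lower, limma on log2(FPKM + 0.1) gave 3 lower and log2(FPKM + 1) gave 3 higher and 3 lower. Leaving out 1 library gave 2 to 6 higher and 3 to 7 lower. Over all genes, calls between the materials numbered 8, against 0 in limma, 59 with the batch term and 0 to 827 with 1 library left out. Against Control they numbered 2042 with PVDF@PDA, against 926 in limma on log2(FPKM + 1) and 1031 to 2869 with 1 library left out. With PCL@PDA they numbered 2616, against 1366 and 1346 to 3173. The cause of these shifts was not tested. The batch term ended no call of a member, and beside the added calls given above it changed none. The difference of Slc7a11 between PVDF@PDA and Control ranged from -0.14 to 0.018 when 1 library was left out, the latter without PVDF@PDA replicate 1. No other called member changed sign against Control in the alternatives run. Between the materials no member was called. Among the 13 genes called against Control, the differences of Txnip, Srxn1 and Idh1 between the materials changed sign when 1 library was left out. Several members not called against Control also changed sign, such as Gclc (-0.19 to 0.09) and Gstm1 (-0.26 to 0.29). With limma on log2(FPKM + 1), the calls of Nfe2l2, Txnip, Srxn1 and Idh1 with both materials, Nqo1 with PVDF@PDA, and Slc7a11, Gss and Gpx8 with PCL@PDA ended. Mgst3 and Gsta4 were the members of fewest counts, and the part of depth in their results was not tested.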

Other observations

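The genes given here were singled out from the wider lists after their values were seen. Ggct, which acts on gamma-glutamyl peptides from glutathione, lay at 23.3 and 24.1 CPM with PVDF@PDA, at 22.9 and 22.8 with PCL@PDA and at 18.5 and 17.2 in Control. It rose by 0.41 and 0.36 on the log2 scale (edgeR adjusted p = 0.00808 and 0.0173). Both calls ended without Control replicate 3 (adjusted p = 0.127 and 0.174), the first also without PVDF@PDA replicate 3 (0.0957) and the second without Control replicate 1 (0.0538). Ggt1, a gamma-glutamyltransferase of the cell surface, fell by 0.25 with PVDF@PDA (adjusted p = 0.0231) and differed by -0.20 with PCL@PDA (adjusted p = 0.0774). The call of Ggt1 ended without Control replicate 3 (adjusted p = 0.241), PVDF@PDA replicate 1 (0.200) or PVDF@PDA replicate 3 (0.0750), with library totals as the scaling (0.0637) and in limma (0.173 and 0.184). Ggt7, of the same family, had 22 to 74 counts per library and rose by 1.31 and 1.57 (adjusted p = 0.0398 and 0.00886). Its calls ended without Control replicate 3 (0.159 and 0.0514), the first also without Control replicate 1 (0.0991) or PVDF@PDA replicate 3 (0.371), in DESeq2 (0.0582) and in limma (0.0537 and 0.0689), and the second without PCL@PDA replicate 3 (0.0621). Chac2, a relative of Chac1, differed by -0.29 and -0.25 and was not called.

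The mitochondrial isocitrate dehydrogenase Idh2 rose by 0.29 and 0.34 (adjusted p = 0.0153 and 0.00288). The calls of Idh2 ended without Control replicate 1 (adjusted p = 0.428 and 0.226), the first also without PVDF@PDA replicate 1 (0.256) and in limma (0.0767 and 0.0863). Msra, a methionine sulfoxide reductase, fell by 0.70 and 0.58 (adjusted p = 0.00133 and 0.00663). Without PVDF@PDA replicate 3 the first of these did not pass (adjusted p = 0.132), and without Control replicate 3 the second did not (0.0728). In limma the second did not pass (0.0775 and 0.0846), nor did the first on log2(FPKM + 1) (0.0552). Sephs2, which makes the selenium donor for selenoproteins, fell by 0.38 and 0.35 (adjusted p = 0.0151 and 0.0221), and both calls ended without Control replicate 1 (0.208 and 0.258). The call with PVDF@PDA also ended without PVDF@PDA replicate 1 (0.0666) or 3 (0.109) and in limma (0.0881 and 0.0978). That with PCL@PDA also ended without PCL@PDA replicate 3 (0.273), in DESeq2 (0.0510), with library totals as the scaling (0.0531) and in limma (0.0960 and 0.107).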
